A study of Mus musculus with 46 samples.

Results

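Matrix metalloproteinases (MMPs), their tissue inhibitors (TIMPs) and urokinase were followed through injury and repair of the mouse kidney in 4 sorted cell populations. The set consisted of 9 genes taken by name from the 53465 genes of the expression table: the gelatinases Mmp2 and Mmp9, matrilysin Mmp7, macrophage metalloelastase Mmp12, the membrane-type enzyme Mmp14, the inhibitors Timp1, Timp2 and Timp3, and Plau, which encodes urokinase plasminogen activator. Wild-type male C57BL/6 mice aged 8 to 12 weeks had sham surgery, unilateral ureteric obstruction (UUO), or UUO followed by reimplantation of the ureter into the bladder (reversed UUO, rUUO). UUO kidneys were taken at 2 or 7 days, and the labels do not say which obstructed sample came from which day, so the UUO groups may mix both times. rUUO kidneys were taken 14 days after the reversal. Proximal tubular (PT) cells binding Lotus lectin (LTL+), F4/80+ macrophages, CD31+ endothelial cells and PDGFRB+ stromal cells were sorted, and RNA of each sort was amplified and sequenced. The number of samples after sham, UUO and rUUO was 3, 4 and 3 for PT cells, 4, 4 and 3 for macrophages, 4, 3 and 4 for endothelial cells, and 4, 4 and 4 for stromal cells, 44 in all. The title of PT UUO replicate 2 names both sham and UUO, and its treatment label, UUO, gave its group. Without it no call of the 9 genes in PT cells was lost, with UUO changes of 1.88 for Mmp7 and 2.06 for Timp1 on the log2 scale.

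MMPs are zinc endopeptidases that cleave collagens, elastin, laminin, fibronectin and many cell surface and signalling proteins, and most are secreted as inactive proenzymes. MMP14 sits in the plasma membrane and activates proMMP2 in a complex that also needs TIMP2. TIMPs block active MMPs, with TIMP3 held in the extracellular matrix while TIMP1 and TIMP2 are soluble. Urokinase converts plasminogen to plasmin, a broad protease that degrades fibrin and can activate several proMMPs, and it acts at the cell surface through its receptor, the product of Plaur. In the kidney these enzymes are known for their part in turnover of basement membrane and interstitial matrix, and Mmp7 is known as a gene that injured tubular epithelium switches on.

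Values were fragment counts that the authors scaled for gene length and sequencing depth (FPKM), so levels of different genes in a sample can be set side by side. The table holds no read totals, so the depth of a sample is unknown and no counting interval is given. The step between the lowest values of short single-exon genes put the relative depth of the samples between 0.65 and 1.53 times their average. Each population carried its own 5 markers, summing to 456 to 2272 FPKM in PT cells, 1299 to 3736 in macrophages, 2013 to 2860 in endothelial cells and 998 to 11495 in stromal cells. The stromal markers in stromal cells moved with surgery, from 998 to 2510 FPKM after sham to 6466 to 11495 after UUO and 4876 to 6468 after rUUO. Macrophage markers in the stromal sorts were 56.4 to 80.0 FPKM after sham, 8.76 to 19.98 after UUO and 10.5 to 21.0 after rUUO, and the part of either shift in the stromal results was not tested. A macrophage sample stood apart, UUO replicate 2, whose macrophage markers summed to 1299 FPKM against 2676 or more in the other 10, and calls that it decides are given without it. Genes of the mitochondrial genome took 58.7 to 75.6% of the FPKM in PT cells and 20.2 to 45.8% elsewhere. In bulk RNA of a sorted population, fewer expressing cells and less RNA per cell cannot be told apart.

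Promoter sequence from RefSeq (build GRCm38, 250 bases before to 50 bases after a start site) was at hand for 6 of the 9 genes, Mmp7, Mmp12, Mmp14, Timp1, Timp2 and Timp3. The windows were searched on both strands for the AP-1 element TGANTCA, a sequence bound by Fos and Jun factors in several MMP promoters, and for the TATA box TATAAA. The sequences below are shown because Mmp7 and Mmp12, genes of the same cluster that are high in different cell populations, were the genes of the 6 whose windows held either motif. Capitals mark the motif, and positions count from 1 at the start site, with -1 the base before it. In the window of the upstream of the start sites listed for Mmp7 the AP-1 element began at -63 and TATA boxes began at -26 and -123, and in the window of the downstream of the start sites listed for Mmp12 the AP-1 element began at -44 and a TATAAA match, not printed, began at 5, after the start site.
Mmp7 AP-1 element, chr9:7692016-7692045, plus strand: aagtgtgcaaaTGAGTCAcctatttccaca
Mmp7 TATA box, chr9:7692052-7692081, plus strand: gctgagaagccaTATAAAtttctccagccc
Mmp7 TATA box, chr9:7691955-7691984, plus strand: tcctcctgccaaTATAAAaacacaatactt
Mmp12 AP-1 element, chr9:7347319-7347348, plus strand: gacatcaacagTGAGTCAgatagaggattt
Of 32851 promoter windows of the same length, 7.81% held TGANTCA and 13.6% held TATAAA. A match is a description of these letters and does not show that a factor binds there.

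In sham kidneys the 9 genes were divided between the populations. Stromal cells had the highest Mmp2, Mmp14, Timp1, Timp2 and Plau, macrophages the highest Mmp12 and Mmp9, and endothelial cells the highest Timp3, while Mmp7 was near 0 everywhere. The lead of stromal over endothelial cells for Timp1 was within the spread (difference -1.10 ± 0.52, adjusted p = 0.136). So was the lead of stromal cells over macrophages for Plau (difference -0.59 ± 0.37, adjusted p = 0.197). In a limma fit on log2(FPKM + 1) over all 44 samples, 34 of the 54 differences between a pair of sham populations passed a Benjamini-Hochberg adjusted p of 0.05. By pair, 7 of 9 genes differed between macrophages and stromal cells, where 46.2% of all genes did, 6 of 9 between macrophages and endothelial cells, against 43.4%, and 6 of 9 between PT cells and macrophages, against 61.7%. The other counts were 5 of 9 for PT against endothelial cells, where 60.6% of all genes differed, 5 of 9 for PT against stromal cells, with 65.5%, and 5 of 9 for endothelial against stromal cells, with 23.7%. For the pairs with PT cells the share of the 9 genes was near or below that of all genes. Over all genes the median sham difference was -0.92 for PT minus endothelial cells, -0.84 for PT minus macrophages and -1.05 for PT minus stromal cells. It was -0.07 for endothelial minus stromal cells, -0.08 for macrophages minus endothelial cells and -0.14 for macrophages minus stromal cells. The sham differences of single genes below are not corrected for this.

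After UUO, 12 of 29 changes of a gene in a population passed an adjusted p of 0.05 in a limma fit per population, 10 of them upward. PT cells had 5 calls among 7 genes tested, where 32.8% of all genes were called. Stromal cells had 4 among 7, against 26.4% of all genes, macrophages 2 among 8, against 4.99%, and endothelial cells 1 among 7, against 1.98%. The background of higher and lower calls after UUO was 27.9% and 4.91% of all genes in PT cells, 2.86% and 2.13% in macrophages, 1.28% and 0.702% in endothelial cells, and 13.4% and 13% in stromal cells. After rUUO, 10 changes against sham passed: 6 of 7 genes in stromal cells, where 17.2% of all genes were called, 3 of 7 in PT cells, against 7.46%, 1 of 8 in macrophages, against 3.44%, and 0 of 7 in endothelial cells, against 1.77%. In endothelial cells 2 of the 7, Mmp7 and Mmp14, had an unadjusted p under 0.05, as had 1895 of all 13393 genes tested there. The background of higher and lower calls after rUUO was 6.52% and 0.946% in PT cells, 1.89% and 1.55% in macrophages, 1.4% and 0.366% in endothelial cells, and 11.6% and 5.57% in stromal cells. Between rUUO and UUO, 1 change passed, Mmp7 in PT cells, where 3.83% of all genes were called, 0.674% higher and 3.15% lower. No change passed for the other populations, in which 4.17% of all genes were called for stromal cells (2.95% higher and 1.22% lower) and 0.0597% for endothelial cells (0.0448% higher and 0.0149% lower). In macrophages 0 of all 13332 genes passed in that comparison, with 945 at an unadjusted p under 0.05 and 35 called when 1 fit was made on all 4 populations.

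Genes had to reach a mean of 1 FPKM over the samples of a population to be tested, which left out 7 of the 36 pairs of a gene and a population: Mmp9 and Mmp12 in PT and in endothelial cells, and Mmp7 in macrophages and stromal cells along with Mmp12 in stromal cells. Mmp2, Mmp7 and Timp1 in PT cells, Mmp7 in endothelial cells and Mmp9 in stromal cells had sham means under 1 FPKM and passed this filter through the injured groups, so the counts above are no measure of how often such genes change. For the 21 comparisons left out, exact two-sided permutation tests over the samples gave no p under 0.0571, and in 12 of them the group sizes allow no p under 0.05. The UUO and rUUO comparisons with sham share the sham samples, and their values are given side by side.

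**Figure D1:**
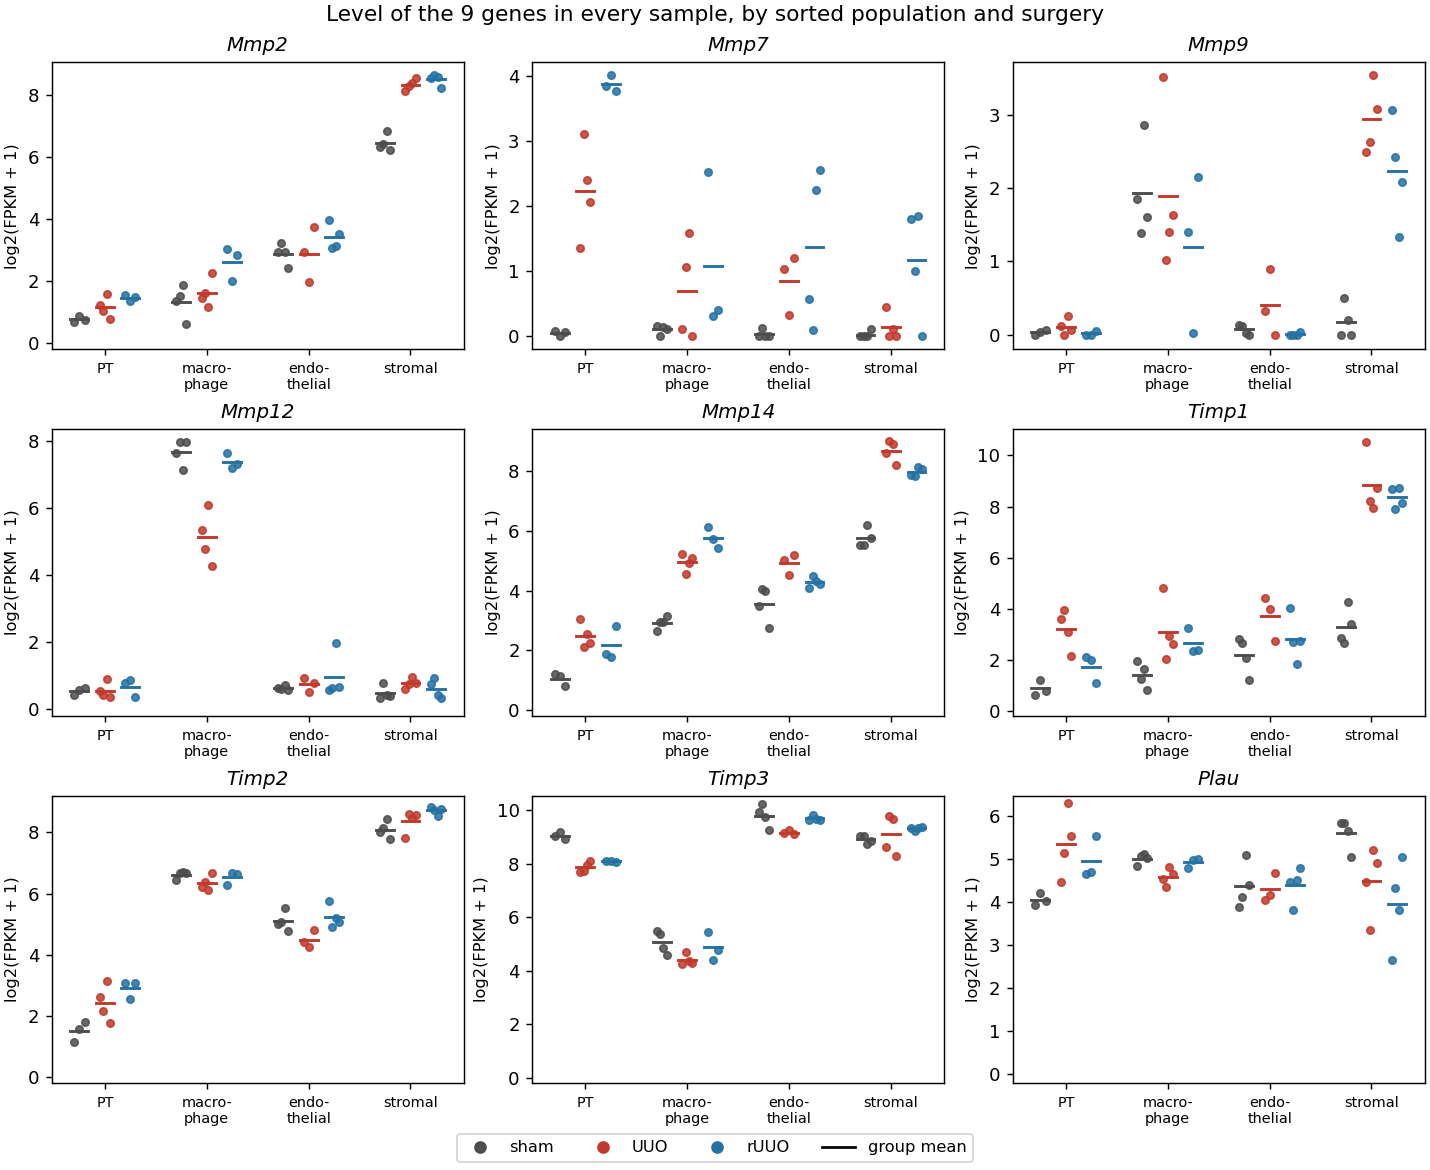
Level of each of the 9 genes as log2(FPKM + 1) on the vertical axis, with 1 point per sample and a bar at the group mean in each of the 4 populations after sham (grey), UUO (red) and rUUO (blue). Mmp12 is high in macrophages and lowest there after UUO, Mmp7 is near 0 in sham samples and highest in PT cells after rUUO, and Timp1 in stromal cells lies between 242 and 1492 FPKM after UUO against 5.25 to 18.0 after sham.

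Mmp14 (ENSMUSG00000000957.11, GRCm38 chr14:54431612-54445364, plus strand), the membrane-type MMP that activates proMMP2 and cleaves fibrillar collagen, was the gene called higher in all 4 populations after UUO. Timp1 also changed upward in all 4, by 2.31 in PT cells, 1.69 in macrophages, 1.53 in endothelial cells and 5.56 in stromal cells. It was called in PT and stromal cells only. In stromal cells Mmp14 measured 45.4, 45.2, 72.8 and 53.5 FPKM after sham, 385, 509, 481 and 293 FPKM after UUO, and 232, 227, 277 and 265 FPKM after rUUO. Every UUO and rUUO sample lay above every sham sample, and the UUO samples lay above the rUUO samples. The log2 change was 2.91 ± 0.20 (SE) after UUO (adjusted p = 7.88e-08) and 2.21 ± 0.20 after rUUO (adjusted p = 2.21e-06), and the difference of -0.71 ± 0.20 between rUUO and UUO did not pass (adjusted p = 0.0569). That difference passed without stromal sham replicate 3 (adjusted p = 0.0409) or without stromal UUO replicate 4 (adjusted p = 0.0246).

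In macrophages Mmp14 measured 5.30, 6.63, 6.64 and 7.88 FPKM after sham, 36.3, 22.6, 29.2 and 32.6 FPKM after UUO, and 68.6, 51.8 and 42.3 FPKM after rUUO. The groups did not overlap, and unlike in stromal cells the rUUO samples were the highest. Mmp14 rose by 2.02 ± 0.22 on the log2 scale after UUO (adjusted p = 0.000142) and by 2.84 ± 0.24 after rUUO (adjusted p = 2.57e-05). The step from UUO to rUUO was 0.82 ± 0.24 (adjusted p = 0.434). Without UUO replicate 2 the UUO change was 2.15 (adjusted p = 8.5e-05). Tested directly, the change from UUO to rUUO was 1.52 ± 0.37 higher in macrophages than in stromal cells (adjusted p = 0.0284). The 5 stromal markers summed to 11.9 to 51.7 FPKM in macrophages after sham, 40.8 to 85.9 after UUO and 33.3 to 62.7 after rUUO, and their part in the Mmp14 values was not tested.

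PT cells had the lowest Mmp14, with 1.32, 1.21 and 0.73 FPKM after sham, 7.22, 3.35, 4.88 and 3.73 FPKM after UUO, and 2.68, 2.46 and 6.07 FPKM after rUUO. The UUO samples lay above the sham samples, with a log2 change of 1.44 ± 0.34 (adjusted p = 0.00541). The change after rUUO was 1.11 ± 0.36 (adjusted p = 0.0778). The median of all genes in PT cells moved by 0.51 after UUO and by 0.21 after rUUO, and relative to that median Mmp14 moved by 0.93 and 0.91. In the other populations that median moved by at most 0.19, in endothelial cells after rUUO and in stromal cells between UUO and rUUO. With quantile normalization the UUO call was lost (adjusted p = 0.0822).

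Endothelial cells measured 10.2, 15.7, 14.7 and 5.68 FPKM after sham, 31.3, 21.8 and 35.4 FPKM after UUO, and 16.1, 21.6, 19.2 and 17.6 FPKM after rUUO. Each UUO sample was above each of the others of these cells. The log2 change after UUO was 1.34 ± 0.31 (adjusted p = 0.0367), and the change after rUUO was 0.72 ± 0.29 (adjusted p = 0.263). The UUO call was lost on leaving out sham replicate 1 or 4, UUO replicate 1 or 4, or rUUO replicate 2, 4 or 6, with adjusted p from 0.0502 to 0.12, and in 5 of 8 other alternatives, up to 0.124. The change in stromal cells exceeded that in endothelial cells (difference -1.57 ± 0.37, adjusted p = 0.00269) and that in PT cells (difference -1.47 ± 0.37, adjusted p = 0.00225).

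Mmp2 (ENSMUSG00000031740.8, chr8:92827291-92853420, plus strand) encodes gelatinase A, which degrades denatured and basement membrane collagens after activation by MMP14. Its level in stromal cells was 78.1, 84.4, 112 and 73.7 FPKM after sham, 275, 307, 332 and 369 FPKM after UUO, and 370, 398, 374 and 298 FPKM after rUUO. All injured samples lay above the sham samples, and the UUO and rUUO samples overlapped. The log2 change was 1.88 ± 0.16 after UUO (adjusted p = 8.28e-07) and 2.05 ± 0.16 after rUUO (adjusted p = 8.01e-07), with 0.17 ± 0.16 between rUUO and UUO (adjusted p = 0.618).

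Mmp2 was 6.50 ± 1.68 FPKM (SD, n = 4) in endothelial cells after sham, 1.64 ± 0.87 (n = 4) in macrophages and 0.71 ± 0.12 (n = 3) in PT cells. In sham kidneys stromal cells exceeded endothelial cells by 3.56 ± 0.29 on the log2 scale (adjusted p = 3.89e-13), endothelial cells exceeded macrophages by 1.55 ± 0.29 (difference -1.55, adjusted p = 2.3e-05), and macrophages and PT cells did not differ beyond their spread (adjusted p = 0.117). None of these 3 populations had a called change of Mmp2. In macrophages the values were 1.56, 1.85, 2.62 and 0.52 FPKM after sham and 7.09, 3.03 and 6.11 FPKM after rUUO, a log2 change of 1.29 ± 0.41 (adjusted p = 0.117), which passed when 1 fit was made on all 4 populations (adjusted p = 0.00763). The UUO change of Mmp2 was higher in stromal cells than in PT cells, macrophages or endothelial cells, by 1.503, 1.59 and 1.87 on the log2 scale (adjusted p = 0.00618, 0.00487 and 0.00174).

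Mmp9 (ENSMUSG00000017737.2, chr2:164940780-164955850, plus strand) encodes gelatinase B, an enzyme that neutrophils and macrophages store or secrete. In stromal cells it was listed at 0, 0.41, 0.15 and 0 FPKM after sham, 4.66, 5.2, 10.7 and 7.46 FPKM after UUO, and 7.35, 4.39, 1.53 and 3.26 FPKM after rUUO. The injured samples all lay above the sham samples. The log2 change was 2.77 ± 0.39 after UUO (adjusted p = 7.03e-05) and 2.06 ± 0.39 after rUUO (adjusted p = 0.00142), and these low-level values depend on the pseudocount, reaching 5.15 and 4.28 with 0.1 in place of 1. The 5 neutrophil markers summed to 0.14 to 0.93 FPKM in stromal cells after sham, 8.37 to 56.0 after UUO and 4.23 to 41.3 after rUUO, with Ly6g at 0 throughout. The highest of these sums, 56.0, was in UUO replicate 2, whose Mmp9 was 5.2 FPKM, and the part of neutrophil RNA in the Mmp9 values was not tested.

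In macrophages Mmp9 varied as much within groups as between them, with 2.61, 1.63, 6.26 and 2.06 FPKM after sham, 10.5, 1.02, 1.65 and 2.11 FPKM after UUO, and 1.65, 0.02 and 3.43 FPKM after rUUO. The log2 change after UUO was -0.03 ± 0.58 (adjusted p = 0.983), and 0.26 without UUO replicate 2 (adjusted p = 0.855). Neutrophil markers in macrophages summed to 26.1 to 78.7 FPKM after sham, 49.9 to 233 after UUO and 99.1 to 129 after rUUO, and their part in macrophage values was not tested. Sham macrophages exceeded the other sham populations, with a difference of 1.76 ± 0.39 over stromal cells (adjusted p = 0.000263). The UUO change was 2.80 lower in macrophages than in stromal cells (difference -2.80 ± 0.55, adjusted p = 0.000301). PT samples stayed at 0.19 FPKM or less and endothelial samples at 0.87 or less.

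Mmp7 (ENSMUSG00000018623.9, chr9:7692090-7699585, plus strand) encodes matrilysin, a small secreted MMP of epithelial cells that lacks the hemopexin domain of most others. PT cells measured 0.06, 0 and 0.05 FPKM after sham, 1.55, 7.63, 4.25 and 3.18 FPKM after UUO, and 13.3, 15.1 and 12.6 FPKM after rUUO. The 3 groups did not overlap, and the samples taken after reversal were the highest. Mmp7 rose by 2.18 ± 0.36 on the log2 scale after UUO (adjusted p = 0.000416) and by 3.82 ± 0.38 after rUUO (adjusted p = 1.67e-05), changes that read 4.78 and 6.68 with a pseudocount of 0.1.

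The further rise of Mmp7 from UUO to rUUO, 1.64 ± 0.36, passed at an adjusted p of 0.0254. It was lost on leaving out UUO replicate 1, 3 or 4 or any of the 3 rUUO replicates (adjusted p up to 0.0893), and in 4 of 8 other alternatives (up to 0.0897), with the log2 change between 1.35 and 2.02 throughout. In the same cells the 5 markers of other tubule segments (Umod, Slc12a1, Slc12a3, Aqp2 and Calb1) summed to 30.4 to 45.8 FPKM after sham, 152 to 211 after UUO and 55.6 to 159 after rUUO. Their part in the Mmp7 values was not tested. The 5 PT markers summed to 1669 to 2272 FPKM after sham, 456 to 614 after UUO and 1019 to 1313 after rUUO.

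Elsewhere Mmp7 was low and scattered after injury. Macrophages measured 0.12, 0, 0.11 and 0.08 FPKM after sham, 0.08, 1.09, 1.99 and 0 FPKM after UUO, and 4.76, 0.24 and 0.33 FPKM after rUUO. Between rUUO and sham macrophages the exact two-sided permutation p was 0.0571, the smallest that 3 against 4 samples allow. Endothelial cells reached 4.86 FPKM and stromal cells 2.6 FPKM after rUUO, each with samples at 0.07 or less in the same group. The rUUO change in PT cells was higher than in macrophages, endothelial cells and stromal cells by 2.84 ± 0.71, 2.48 ± 0.69 and 2.68 ± 0.69 (adjusted p = 0.0126, 0.035 and 0.00647). Mmp7 was under the filter in macrophages and stromal cells, so these differences rest largely on the PT change.

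Mmp12 (ENSMUSG00000049723.14, chr9:7344381-7369499, plus strand), the elastase that macrophages secrete, differed more between sham populations than any other of the 9 genes. Sham macrophages measured 201, 251, 140 and 253 FPKM, while every PT, endothelial and stromal sample of any surgery lay between 0.26 and 2.92 FPKM. The sham difference on the log2 scale was 7.21 ± 0.28 over stromal cells, 7.05 ± 0.28 over endothelial cells and -7.14 ± 0.30 for PT cells relative to macrophages, with adjusted p of 2.41e-23, 5.15e-23 and 3.57e-22. After UUO macrophages measured 39.7, 26.9, 67.4 and 18.6 FPKM, all below the sham samples. After rUUO they measured 199, 147 and 159 FPKM, within the sham range and above all UUO samples.

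Mmp12 fell by 2.55 ± 0.32 on the log2 scale after UUO (adjusted p = 0.000355), and the fall passed in every one of 11 leave-one-out fits and 8 other alternatives. Against sham, rUUO differed by -0.30 ± 0.34 (adjusted p = 0.728). From UUO to rUUO the change was 2.26 ± 0.34, which did not pass within macrophages (adjusted p = 0.0831, with 0 of 13332 genes called), and over the 8 alternatives its adjusted p ran from 4.84e-05, when 1 fit was made on all 4 populations, to 0.479 with the replicate number as a block. Without UUO replicate 2, the sample with fewer macrophage markers, that change was 2.14 (adjusted p = 0.0348), and without UUO replicate 3 it was 2.58 (adjusted p = 0.00713). Tested between populations, the change of Mmp12 from UUO to rUUO was higher in macrophages than in PT cells (difference -2.14 ± 0.43, adjusted p = 0.0101), endothelial cells (2.04 ± 0.43, adjusted p = 0.0314) and stromal cells (2.42 ± 0.42, adjusted p = 0.00101). Mmp12 was under the filter in PT, endothelial and stromal cells. These differences therefore restate the macrophage change with the spread of the joint fit and are no separate evidence for it.

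**Figure D2:**
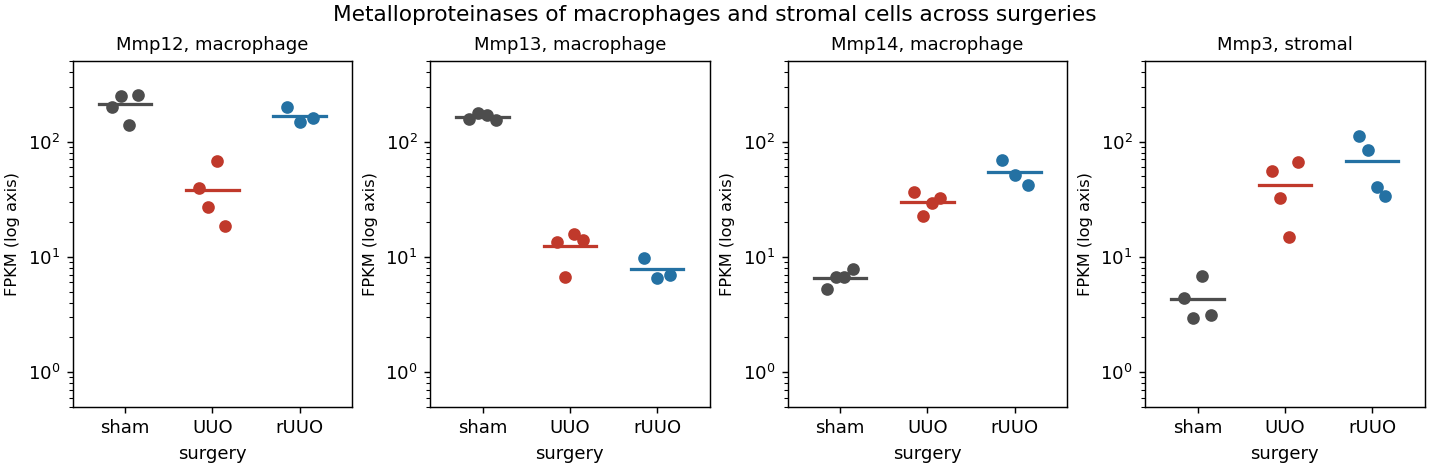
FPKM on a log axis for Mmp12, Mmp13 and Mmp14 in macrophages and Mmp3 in stromal cells after sham, UUO and rUUO, with 1 point per sample and a bar at the group mean. Mmp12 is low after UUO only, Mmp13 is low after both UUO and rUUO, and Mmp14 and Mmp3 are high after both.

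Timp1 (ENSMUSG00000001131.11, chrX:20870166-20874735, plus strand), a soluble inhibitor of many MMPs, had the largest log2 changes of the set at a pseudocount of 1. In stromal cells it measured 6.21, 5.25, 18.0 and 9.64 FPKM after sham, 1492, 295, 242 and 421 FPKM after UUO, and 406, 236, 420 and 284 FPKM after rUUO. The lowest injured sample lay far above the highest sham sample, and UUO replicate 1 stood above the rest. The log2 change was 5.56 ± 0.47 after UUO (adjusted p = 6.08e-07) and 5.07 ± 0.47 after rUUO (adjusted p = 2.68e-06), and the UUO change ran from 4.996 to 5.88 on leaving out each sample in turn. Between rUUO and UUO it was -0.49 ± 0.47 (adjusted p = 0.593).

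PT cells measured 0.55, 1.34 and 0.73 FPKM of Timp1 after sham, 11.1, 14.4, 7.44 and 3.46 FPKM after UUO, and 3.37, 2.95 and 1.16 FPKM after rUUO. Timp1 rose by 2.31 ± 0.41 after UUO (adjusted p = 0.000772), as a gene that passed the filter through its injured samples. The change from UUO to rUUO was -1.45 ± 0.41 (adjusted p = 0.065), which passed without UUO replicate 4 (-1.80, adjusted p = 0.026) and when FPKM was rescaled to equal sums (-1.54, adjusted p = 0.0494). After rUUO the difference from sham was 0.86 ± 0.44 (adjusted p = 0.274). The 5 stromal markers in PT cells summed to 15.9 to 21.2 FPKM after sham, 21.5 to 48.6 after UUO and 22.4 to 31.8 after rUUO, and their part in the Timp1 values was not tested.

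Macrophages measured 2.89, 1.36, 2.13 and 0.76 FPKM of Timp1 after sham and 26.9, 3.08, 6.68 and 5.19 FPKM after UUO, a log2 change of 1.69 ± 0.51 (adjusted p = 0.0743). Without UUO replicate 2, the sample with fewer macrophage markers, the change was 2.04 and passed (adjusted p = 0.0288), while without UUO replicate 1, the highest sample, it was 1.12 (adjusted p = 0.155). Endothelial cells measured 6.05, 5.34, 3.25 and 1.29 FPKM after sham and 20.4, 14.9 and 5.75 FPKM after UUO, a change of 1.53 ± 0.53 (adjusted p = 0.18). In the same order of UUO samples the 5 stromal markers summed to 85.9, 62.4, 40.8 and 67.5 FPKM in macrophages. In endothelial cells they summed to 67.8, 33.7 and 55.2 FPKM. After sham they summed to 11.9 to 51.7 FPKM in macrophages and 31.0 to 56.9 in endothelial cells. Their part in these Timp1 values was not tested. The UUO change in stromal cells exceeded those in PT cells, macrophages and endothelial cells by 3.25 ± 0.77, 3.88 ± 0.74 and 4.03 ± 0.77 (adjusted p = 0.00121, 0.000179 and 0.000239).

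Timp2 (ENSMUSG00000017466.9, chr11:118301069-118355740, minus strand), the inhibitor that also takes part in activation of proMMP2, ordered the sham populations fully. It was 276 ± 55.7 FPKM (SD, n = 4) in stromal cells, 97.3 ± 7.96 (n = 4) in macrophages, 33.9 ± 8.12 (n = 4) in endothelial cells and 1.86 ± 0.64 (n = 3) in PT cells, and each neighbouring pair in this order differed (adjusted p = 7.14e-07, 5e-07 and 9.83e-16). Outside PT cells its changes with surgery were smaller than each of these differences between neighbours. The PT rise after rUUO, 1.41 on the log2 scale, was near the sham difference of macrophages from stromal cells (-1.48) and from endothelial cells (1.52). In stromal cells Timp2 measured 257, 281, 350 and 217 FPKM after sham and 451, 429, 374 and 433 FPKM after rUUO, a rise of 0.63 ± 0.19 (adjusted p = 0.0306) whose groups did not overlap.

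That stromal call was lost on leaving out sham replicate 1, 2 or 4 or rUUO replicate 1, 2 or 6 (adjusted p up to 0.0985), and in 5 of 8 other alternatives. With quantile normalization it was 0.12 (adjusted p = 0.748) and after rescaling without mitochondrial genes 0.40 (adjusted p = 0.209). PT cells measured 1.18, 1.96 and 2.44 FPKM after sham, 5.07, 3.42, 7.79 and 2.40 FPKM after UUO, and 7.43, 4.88 and 7.32 FPKM after rUUO. The rise after rUUO was 1.41 ± 0.36 (adjusted p = 0.0308), lost without any of the 3 sham replicates or without rUUO replicate 2 or 4 (adjusted p up to 0.115) and in 3 of 8 other alternatives, and the UUO change was 0.92 ± 0.34 (adjusted p = 0.0513). Macrophages and endothelial cells had no called change of Timp2, with 85.4, 101, 103 and 100 FPKM in sham macrophages and 72.4, 81.8, 67.9 and 99.8 FPKM in UUO macrophages.

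Timp3 (ENSMUSG00000020044.13, chr10:86300372-86349506, plus strand), the inhibitor bound to the extracellular matrix, was the most abundant of the 9 genes in PT and endothelial cells. Sham levels were 921 ± 251 FPKM (SD, n = 4) in endothelial cells, 530.0 ± 50.5 (n = 3) in PT cells, 483 ± 47.8 (n = 4) in stromal cells and 33.8 ± 9.85 (n = 4) in macrophages. Endothelial cells exceeded PT cells (difference -0.76 ± 0.25, adjusted p = 0.00924) and stromal cells (0.89 ± 0.23, adjusted p = 0.00318), and PT and stromal cells did not differ beyond their spread (0.13 ± 0.25, adjusted p = 0.656). The median of all genes differed by -0.92 for PT minus endothelial cells and by -1.05 for PT minus stromal cells. The Timp3 difference between endothelial and PT cells was thus no larger than that of the median gene. The 5 markers of other tubule segments summed to 167 to 859 FPKM in sham endothelial cells against 62.3 to 216 after UUO. Podxl, a gene of both podocytes and endothelium, measured 424, 540, 454 and 234 FPKM in endothelial cells after sham, 256, 257 and 244 FPKM after UUO, and 351, 373, 381 and 351 FPKM after rUUO, lowest like Timp3 in sham replicate 4 among the sham samples. The podocyte gene Nphs1 measured 3.86 to 7.21 FPKM after sham, 0.97 to 3.94 after UUO and 2.91 to 6.96 after rUUO, and the part of these cells in the Timp3 values was not tested.

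In PT cells Timp3 measured 521, 585 and 485 FPKM after sham, 209, 209, 250 and 275 FPKM after UUO, and 276, 273 and 270 FPKM after rUUO. The UUO and rUUO samples lay well below the sham samples, and the rUUO samples lay close to one another. Timp3 fell by 1.17 ± 0.16 on the log2 scale after UUO (adjusted p = 8.08e-05), while the median of all genes in PT cells moved up by 0.51, and it was still lower by 0.95 ± 0.17 after rUUO (difference -0.95, adjusted p = 0.00252). Between rUUO and UUO it differed by 0.22 ± 0.16 (adjusted p = 0.442). Both calls held in all 10 leave-one-out fits and 8 other alternatives.

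In endothelial cells Timp3 measured 991, 1219, 857 and 618 FPKM after sham, 568, 614 and 548 FPKM after UUO, and 800, 900, 828 and 798 FPKM after rUUO. All UUO samples were below all others, with a log2 change of -0.64 ± 0.19 (adjusted p = 0.122), which passed without sham replicate 4 (-0.81, adjusted p = 0.0145). In stromal cells the UUO samples were 398, 879, 827 and 315 FPKM, on either side of the sham range of 425 to 523 FPKM. The UUO change in PT cells was lower than in stromal cells (difference -1.36 ± 0.34, adjusted p = 0.00232). Timp3 lies inside Syn3, a gene on the opposite strand whose exons overlap those of Timp3 and whose mean over all samples was 4.33 FPKM, and since the library kit does not mark strand, reads in the overlapping exons cannot be told apart by strand.

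The 3 TIMPs took different shares of their summed FPKM in the 4 populations. Timp3 made up 99.4 to 99.7% of the sum in sham PT cells and 94.6 to 97.0% in sham endothelial cells, whereas Timp2 made up 64.7 to 80.9% in sham macrophages. In stromal cells the share of Timp1 was 0.65 to 2.27% after sham, 17.0 to 70.5% after UUO with a median of 28.4%, and 18.6 to 29.1% after rUUO. The summed stromal FPKM of the 3 inhibitors was 690 to 807 after sham, 1113 to 2117 after UUO and 1269 to 1510 after rUUO. Mitochondrial genes took 34.0 to 45.8% of stromal FPKM after sham, 21.5 to 26.4% after UUO and 20.2 to 25.9% after rUUO. The sums were not rescaled for this. In PT cells the sum moved the other way, from 488 to 588 FPKM after sham to 225 to 281 after UUO and 278 to 286 after rUUO.

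**Figure D3:**
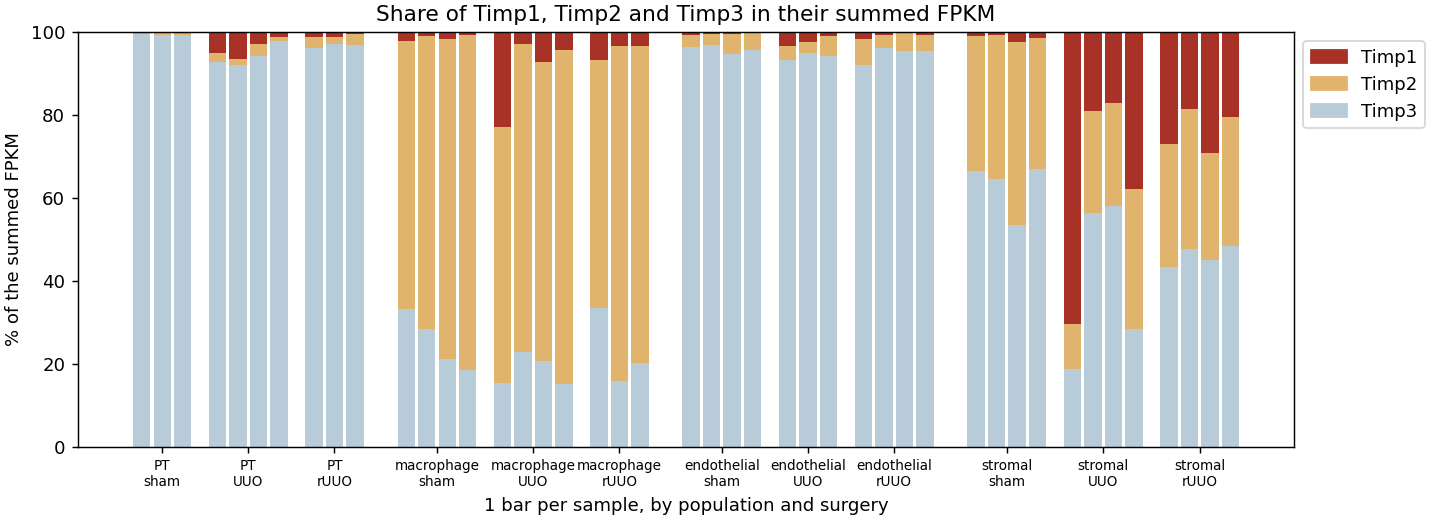
Share of Timp1, Timp2 and Timp3 in their summed FPKM, in percent, with 1 bar per sample grouped by population and surgery. Timp3 fills nearly the whole bar in PT and endothelial samples, Timp2 most of it in macrophages, and the Timp1 share of stromal samples is at most 2.27% after sham and 17.0% or more after UUO and rUUO.

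Plau (ENSMUSG00000021822.3, chr14:20836660-20843385, plus strand), which encodes urokinase, rose in PT cells after UUO and fell in stromal cells after rUUO. PT cells measured 14.2, 17.5 and 15.3 FPKM after sham, 21.2, 34.2, 77.4 and 45.7 FPKM after UUO, and 24.2, 25.0 and 45.6 FPKM after rUUO. All injured PT samples lay above the sham samples. Plau rose by 1.31 ± 0.35 after UUO (adjusted p = 0.0123), which is 0.80 above the median of all genes, and the change after rUUO was 0.91 ± 0.38 (adjusted p = 0.176). In the same samples the 5 markers of other tubule segments summed to 33.5, 30.4 and 45.8 FPKM after sham, 160, 152, 211 and 177 FPKM after UUO, and 71.9, 55.6 and 159 FPKM after rUUO, highest in the UUO and the rUUO sample with the highest Plau, and their part in the Plau values was not tested. The UUO call was lost with no filter on low values (adjusted p = 0.0649) and with quantile normalization (adjusted p = 0.0557).

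Stromal cells measured 55.9, 56.4, 49.4 and 32.3 FPKM of Plau after sham, 21.0, 9.21, 36.1 and 29.1 FPKM after UUO, and 5.29, 19.0, 13.2 and 31.9 FPKM after rUUO. The rUUO samples all lay below the sham samples, the nearest pair being 31.9 and 32.3 FPKM. The log2 change was -1.11 ± 0.45 after UUO (adjusted p = 0.0821) and -1.64 ± 0.45 after rUUO (adjusted p = 0.0192). The rUUO call was lost without sham replicate 1 (adjusted p = 0.0536), sham replicate 2 (0.0548 as the adjusted p) or rUUO replicate 1 (adjusted p = 0.0603), and with no filter on low values (adjusted p = 0.0753). The 5 markers of other tubule segments summed to 364 to 565 FPKM in stromal cells after sham, 29.5 to 61.6 after UUO and 54.1 to 97.6 after rUUO, and their part in the fall of Plau was not tested.

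The change of Plau in PT cells was higher than in stromal cells by 2.42 ± 0.54 after UUO (adjusted p = 0.000619) and by 2.55 ± 0.56 after rUUO (adjusted p = 0.00135). Over all genes the median of this difference was 0.51 after UUO and 0.07 after rUUO, and the Plau values are not corrected for it. Macrophages measured 27.5, 32.4, 33.9 and 31.7 FPKM after sham, 22.2, 19.3, 27.1 and 24.01 FPKM after UUO, and 26.8, 30.6 and 31.2 FPKM after rUUO, with a UUO change of -0.43 ± 0.18 (adjusted p = 0.202). Endothelial cells stayed at 13.1 to 33.4 FPKM, with a UUO change of -0.07 ± 0.31 (adjusted p = 0.961). In the sham order of Plau, stromal cells and macrophages did not differ beyond their spread (adjusted p = 0.197), nor macrophages and endothelial cells (adjusted p = 0.162), nor endothelial and PT cells (adjusted p = 0.504). Pairs further apart in that order did differ. The difference was -1.22 ± 0.37 for endothelial minus stromal cells (adjusted p = 0.0107) and -1.54 ± 0.40 for PT minus stromal cells (adjusted p = 0.000879). For PT cells minus macrophages it was -0.96 ± 0.40 (adjusted p = 0.0341), near the all-gene median of -0.84 for that pair.

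**Figure D4:**
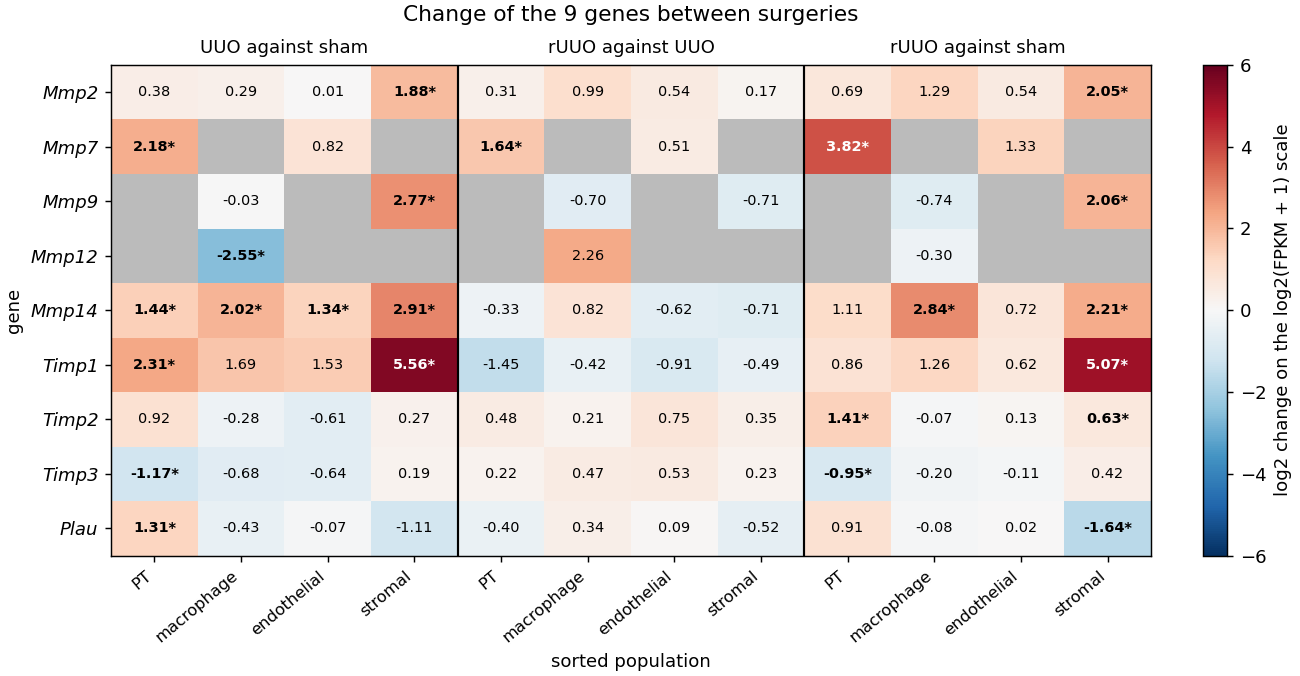
Log2 change on the log2(FPKM + 1) scale of each gene (rows) in each population (columns) for UUO against sham, rUUO against UUO and rUUO against sham, red for higher and blue for lower, with grey for genes under the filter on low values and a star for an adjusted p under 0.05. Mmp14 carries a star in all 4 populations after UUO, and between rUUO and UUO the single star is Mmp7 in PT cells.

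Whether a change differed over the 4 populations was tested by a moderated F test. After UUO the change differed for 8 of the 9 genes, against 33.5% of all genes, with Mmp7 as the exception (adjusted p = 0.065). After rUUO against sham it differed for 8 of 9, against 15.1% of all genes, with Mmp12 as the exception (adjusted p = 0.695). Between rUUO and UUO it differed for Mmp12 (adjusted p = 0.0008) and Mmp14 (adjusted p = 0.0246) and for no other of the 9, against 5.57% of all genes. Mmp12 was under the filter outside macrophages, so its F tests rest on the macrophage change. Mmp9 was under it in PT and endothelial cells and Mmp7 in macrophages and stromal cells. The tests of Mmp9 and Mmp7 therefore rest largely on the populations where they passed. The counts over 9 genes, here and between sham populations, include these genes and are no measure of how often such genes differ. The pair that differed most often was PT against stromal cells, with 7 of 9 genes after UUO (29.2% of all genes) and 6 of 9 after rUUO (10.4%). Endothelial against stromal cells followed with 4 of 9 after UUO (13.1%) and 5 of 9 after rUUO (6.73%), and macrophages against stromal cells with 4 of 9 (16.2%) and 2 of 9 (9.53%). PT cells against macrophages had 3 of 9 (15.5%) and 3 of 9 (4.08%). PT against endothelial cells had 1 of 9 (11.1%) and 2 of 9 (2.77%). Macrophages against endothelial cells had 1 of 9 (2.31%), which was Mmp12, and 1 of 9 (2.48%), which was Mmp14.

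The rest of the MMP family was a list of 20 genes, the other MMPs with Timp4 and the membrane inhibitor Reck. In stromal cells 9 of them were tested, and after UUO 4 rose and 1 fell, with a list median of 1.00 against -0.07 for all genes. Of all genes tested in stromal cells 13.4% were called higher and 13% lower after UUO. Mmp19 rose by 3.42 ± 0.40 (adjusted p = 1.24e-05) and Mmp3, stromelysin 1, rose by 2.88 ± 0.44 (adjusted p = 0.000177), from 4.33 FPKM to 42.3 FPKM on average. Mmp17, a membrane-anchored MMP, fell by 2.05 ± 0.37 (adjusted p = 0.000655). After rUUO 3 rose and 2 fell, where 11.6% of all genes were called higher and 5.57% lower. Mmp3 measured 111, 85.1, 40.5 and 33.8 FPKM, a log2 change of 3.57 ± 0.44 (adjusted p = 4.13e-05). Mmp11, stromelysin 3, was up by 2.93 ± 0.33 (adjusted p = 1.69e-05) and Mmp19 by 2.51 ± 0.40 (adjusted p = 0.00036). Mmp11 also rose in endothelial cells after UUO, by 1.78 ± 0.31 (adjusted p = 0.00561), as 1 call among 8 genes tested there, where 1.28% of all genes were called higher.

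In macrophages 3 genes of that list were tested, where 2.13% of all genes were called lower after UUO and 1.55% after rUUO. Mmp13, collagenase 3, was called. It measured 158, 178, 169 and 153 FPKM after sham, 13.3, 6.74, 15.9 and 14.04 FPKM after UUO, and 9.81, 6.50 and 7.01 FPKM after rUUO. Mmp13 fell by 3.67 ± 0.24 on the log2 scale after UUO (adjusted p = 5.46e-06, and 7.32e-07 without UUO replicate 2) and by 4.25 ± 0.26 after rUUO (adjusted p = 2.14e-06). Mmp12 lay at 147 to 199 FPKM in the same rUUO samples, beside its sham range of 140 to 253 FPKM, so the neighbouring genes Mmp12 and Mmp13 were at like levels in sham macrophages and far apart after reversal. PT cells had 1 gene of the list above the filter and no call in any comparison.

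Mmp7, Mmp12 and Mmp13 belong to a cluster of 10 MMP genes that spans 427072 bases (GRCm38 chr9:7272514-7699585). Of these 10 genes, 7 had a mean of at least 1 FPKM in some group. Mmp13 and Mmp12 were highest in sham macrophages, at means of 164 and 211 FPKM, Mmp3 in rUUO stromal cells at 67.6 FPKM, and Mmp7 at the other end in rUUO PT cells at 13.6 FPKM. Mmp10 was highest in UUO stromal cells at 3.05 FPKM, Mmp27 in rUUO stromal cells at 1.51 FPKM and Mmp8 in UUO macrophages at 1.43 FPKM. Mmp1a and Mmp1b were listed at 0 in every sample, and the exons of Mmp1b overlap those of Mmp12 on the opposite strand.

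The other plasminogen genes were a list of 11, among them Plat, Plaur, Plg, Plgrkt, Serpine2, Serpinb2, Serpinf2, Anxa2, S100a10 and Lrp1. In PT cells 9 were tested, and after UUO 6 rose and 1 fell, with a list median of 1.13 against 0.51 for all genes. Of all genes tested in PT cells 27.9% were called higher and 4.91% lower after UUO. Anxa2 and S100a10, which together form a cell surface complex that binds plasminogen and tPA, rose by 3.08 ± 0.28 (adjusted p = 1.88e-06) and 3.02 ± 0.21 (adjusted p = 1.32e-07). Plaur, the urokinase receptor, rose by 2.09 ± 0.39 (adjusted p = 0.00113), from 0.16 FPKM to 4.17 FPKM on average, and passed the filter through its injured samples. After rUUO Anxa2, S100a10 and Plaur remained above sham, by 2.96 ± 0.30, 2.08 ± 0.22 and 1.49 ± 0.42 (adjusted p = 1.82e-05, 2.55e-05 and 0.043), where 6.52% of all genes were called higher. S100a10 was the gene of the list that fell from UUO to rUUO (-0.94 ± 0.21, adjusted p = 0.0254), where 3.15% of all genes were called lower. The rUUO call of Plaur was lost on leaving out any 1 of 8 of the 10 PT samples, all but UUO replicate 4 and rUUO replicate 4 (adjusted p up to 0.142), and that fall of S100a10 without UUO replicate 1 or 3 or rUUO replicate 2 or 3 (adjusted p up to 0.0896).

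In stromal cells 4 of 9 plasminogen genes rose after UUO and none fell, with a list median of 1.05 against -0.07 for all genes. Of all genes tested there 13.4% were called higher and 13% lower after UUO. Plaur rose by 1.43 ± 0.44 (adjusted p = 0.0241, lost without sham replicate 3 or 4 or UUO replicate 2, up to 0.0799), and Plat, which encodes tPA, by 1.36 ± 0.20 (adjusted p = 0.000119). After rUUO the same count of 4 was called higher, against 11.6% of all genes, with Plaur up by 2.14 ± 0.44 (adjusted p = 0.0028) and Plat by 1.66 ± 0.20 (adjusted p = 3.08e-05), while Plau itself was lower. Plat was at a mean of 132 FPKM in rUUO stromal cells, where Plau was at 17.3 ± 11.2 FPKM (SD, n = 4).

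In endothelial cells 1 of 9 plasminogen genes was called after rUUO against sham, where 1.4% of all genes were called higher. It was Serpine2, which encodes protease nexin 1 and rose by 1.74 ± 0.22 (adjusted p = 0.000427). In macrophages 3 of 8 rose after UUO, against 2.86% of all genes. S100a10 rose by 1.97 ± 0.47 (adjusted p = 0.029), Anxa2 by 0.82 ± 0.22 (adjusted p = 0.0498) and the scavenger receptor gene Lrp1 by 0.81 ± 0.22 (adjusted p = 0.0465). After rUUO 1 of 8 rose in macrophages, against 1.89% of all genes, namely Plaur by 2.37 ± 0.60 (adjusted p = 0.0441). Without UUO replicate 2 these UUO changes were 2.41, 0.97 and 0.94 (adjusted p = 0.00401, 0.018 and 0.0204). The calls of Anxa2 and Lrp1 were lost on leaving out any other of the 11 macrophage samples (adjusted p up to 0.146 and 0.116), that of S100a10 without sham replicate 1, 2 or 3 or UUO replicate 1, 3 or 4 (up to 0.0967), and that of Plaur without sham replicate 1 or 4, UUO replicate 3 or 4 or any rUUO replicate (up to 0.152). The neutrophil markers of these macrophages are given with Mmp9, and their part in these changes was not tested.

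As a description over the 12 group means, which share libraries within each group, the genes with the pattern most like each of the 9 were named by Pearson correlation of log2(FPKM + 1). For Mmp2 they were Mical2, Cyp1b1 and C1ra (each r = 0.99), for Mmp14 Fn1, Spsb1 and Gm10039 (r = 0.96 for each), and for Timp1 Mt2, Sorcs2 and P4hb (r from 0.963 to 0.968). For Mmp12 they were Tm4sf5, AC154239.3 and Gm17147 (r from 0.994 to 0.996), and for Mmp9 Fam102b, Tlcd2 and Emilin2 (r from 0.936 to 0.963). Timp2 was followed by Lbh, Siva1 and a gene printed as Sep-08, which is Sept8 in the annotation (r from 0.978 to 0.984), and Timp3 by Akap2, Ccser2 and Syn3 (r from 0.97 to 0.978), the last being the gene whose exons overlap those of Timp3. Mmp7 and Plau had looser neighbours, Cldn3, Ubd and Fxyd3 for Mmp7 (r = 0.86 for each) and 1810021B22Rik, Rab11fip1 and Mbnl3 for Plau (r from 0.787 to 0.833).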

How the data were processed

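RNA of sorted kidney cells was amplified with the Ovation RNA-Seq System V2, a kit that does not mark strand and sequenced. Per the labels, the processing involved FastQC, Bowtie2, RSEM, DESeq2 and mm10, whose versions are not given. The authors deposited 1 table of FPKM values, rounded to 2 decimals, for 53465 genes. Of its 46 value columns 44 were used and 2 were not, since both carried the name of 1 endothelial UUO sample, and another labelled sample (PT sham replicate 3) has no column that was used here. All 9 genes had the coordinates of GENCODE M21 on GRCm38.

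FPKM was tested as log2(FPKM + 1) with limma (version 3.58.1, R 4.3.3, empirical Bayes with intensity trend), per population over genes whose mean in it reached 1 FPKM, and in 1 fit on 44 samples for differences between populations. Benjamini-Hochberg adjustment covered all genes of a comparison, at 0.05. A change on this scale understates the change of low genes. The authors' steps cannot be undone from FPKM, so no count model was run. Genes under the filter were compared by exact permutation tests (SciPy 1.17.1). The fits were tested on simulated data. Alternatives were a pseudocount of 0.1, no filter, FPKM rescaled to equal sums (TPM), quantile normalization, rescaling without mitochondrial genes, no intensity trend, a block for replicate number, a single fit of the 4 populations together, and leaving out each sample. The labels do not say which samples of the 4 populations came from the same mouse, and p-values measure the spread between the deposited samples, which may be partly technical.

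The 9 genes, the lists and the rule for named genes were chosen with earlier results of these data known. The rule named all 9, up to 3 called genes with the largest change per population and comparison from each pathway list, the 3 genes most like each of the 9, and the markers. Results of some listed genes are not reported here. The TIMP shares and the MMP cluster were chosen after their values were seen. Lymphocyte markers summed to 3.37 to 57.8 FPKM in UUO macrophages, 6.23 to 29.9 in rUUO macrophages and at most 2.53 elsewhere.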

Additional observations from a re-analysis of the deposited data

Results flagged for a closer look

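Of 72 groups of 4 samples, 6 held a sample whose gap to the next took nearly the whole range of its group, where chance gives about 1 in 20. In 3 of them the other samples were listed at 0 FPKM and the gap took the whole range (share 1): Mmp7 in endothelial sham replicate 2 (0.09 FPKM), Mmp7 in stromal sham replicate 4 (0.08 FPKM) and Mmp9 in endothelial rUUO replicate 6 (0.03 FPKM). Mmp12 in endothelial rUUO replicate 4 was 2.92 FPKM against 0.51 to 0.59 in the others, a gap of 0.946 of the range. Timp2 in macrophage sham replicate 1 was 85.4 FPKM against 100 to 103, a gap of 0.889 of the range. Timp2 in stromal UUO replicate 1 was 226 FPKM against 357 to 384, a gap of 0.864 of the range, in the sample that also had the highest Timp1, 1492 FPKM.

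The change after surgery differed between the 4 populations for 18 of 27 combinations of a gene and a comparison (limma F test, adjusted over all genes). Mmp7, Mmp9 and Mmp12 were under the filter in some of the populations, with the limit given above. After UUO against sham the adjusted p was 4.52e-07 for Mmp12, 7.99e-05 for Timp1, 0.000208 for Mmp9, 0.00158 for Mmp2, 0.00235 for Mmp14, 0.00256 for Timp2, 0.00407 for Plau and 0.0133 for Timp3. Between rUUO and UUO it was 0.000800 for Mmp12 and 0.0246 for Mmp14. After rUUO against sham it was 3.75e-05 for Timp1, 0.000113 for Mmp14, 0.00197 for Mmp9, 0.0058 for Plau, 0.00823 for Mmp7, 0.0103 for Timp2, 0.0271 for Mmp2 and 0.0384 for Timp3.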

How the results depend on the processing

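The count of the 9 genes called was 12 after UUO against sham, with 10 to 15 over the 8 alternatives and 11 to 13 on leaving out a sample, and 10 after rUUO against sham, with 7 to 12 and 8 to 10. Between rUUO and UUO the count of 1 became 0 with a pseudocount of 0.1, 0 with no filter on low values, 0 with the replicate block, 3 after rescaling to equal sums (TPM), 2 with quantile normalization, and 0 to 2 on leaving out a sample, so that comparison rests on values near the threshold. The sham differences numbered 29 to 35 over alternatives and 32 to 34 on leaving out a sample, against 34, and the changes that differed between populations 15 to 18 and 16 to 19, against 18. The other pathway genes gave 38 calls, 28 to 39 over alternatives and 33 to 43 on leaving out a sample. No called change of the 9 genes turned its direction. Over settings other than leaving out a sample, 646 changes of the 9 genes kept their side of the threshold, 21 lost a call, 14 gained one, and 15 that passed in neither fit changed sign. With the replicate block, a paired fit by replicate number, 11, 0 and 8 genes were called for UUO against sham, rUUO against UUO and rUUO against sham. Over 35 pairs of samples with the same number in different surgeries, deviations from the group means correlated at -0.062 to 0.117. Over 126 pairs with different numbers they correlated at -0.102 to 0.083. In PT cells the medians were 0.035 for the same number and -0.014 for different numbers. Of 40 samples, 13 correlated best with a sample of their own number, and the count given by chance was not computed. These weak correlations do not settle whether the numbers pair the samples. Over all genes the block called 160 of 11416 between rUUO and UUO in PT cells, against 437. With quantile normalization the median change of all genes in PT cells after UUO was -0.02 in place of 0.51, and the split of calls was 1301 higher and 1186 lower in place of 3186 and 561. The FPKM table gives no depth, which limits what can be said of genes near 0 such as Mmp7 and Mmp9 outside their main populations.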
